A study of Mus musculus with 32 samples.

Results

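The genes described are the metallothioneins Mt1 and Mt2, the metal-sensing transcription factor Mtf1, the zinc exporter Slc30a1 and the zinc importers Slc39a14 and Slc39a8, in mouse bone marrow-derived macrophages. They were the 6 rows of the count table whose Ensembl identifiers map to these symbols, of 56953 genes in the table. LPS raised Mt1 4.22-fold in wild-type (WT) cells and 2.08-fold in Acod1 knockout (KO) cells. It lowered Slc39a8 to 0.178 times its control level in WT and 0.193 times in KO, and raised Mtf1 and Slc39a14 in either genotype. Dexamethasone given together with LPS lowered Slc30a1 and raised both importers in WT. In KO the dexamethasone effect on each of these 3 transporters in LPS-treated cells was closer to 0. Over all tested genes dexamethasone in LPS-treated cells also changed fewer in KO, 38.1% of genes against 69.2% in WT.

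Messenger RNA was sequenced from macrophages grown from femur and tibia marrow of C57BL/6J mice aged 8 to 12 weeks, in medium with L929 cell supernatant as the source of M-CSF. The design crossed 2 genotypes, Acod1 WT and Acod1 KO, with 4 treatments lasting 24 h, and each of the 8 groups had 4 libraries, 32 in all. The treatments were none (control), 100 nM of dexamethasone, a synthetic glucocorticoid; 100 ng of LPS, the lipopolysaccharide of bacterial walls (the labels give no volume); and both agents together. The series asked how glucocorticoids act on LPS-treated macrophages and compared the same conditions without Irg1, the older name of Acod1, which encodes the enzyme that makes itaconate. The labels name C57BL/6J mice from Janvier and Irg1+/+ and Irg1-/- mice from Jackson, and do not say which of the first 2 gave the WT libraries. Nor is it stated if the replicates of a group are different animals or cultures, so p-values measure only the spread between these libraries, which may be technical.

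Metallothioneins are small cysteine-rich proteins of the cytosol that bind zinc and copper. MTF-1, the product of Mtf1, binds metal response elements in the promoters of the mouse genes Mt1, Mt2 and Slc30a1 when free zinc rises, and the mouse metallothionein genes are also known to respond to glucocorticoids and to LPS in the animal. ZnT proteins (Slc30 family) move zinc out of the cytosol, and ZnT1 (Slc30a1) does so across the cell membrane. ZIP proteins (Slc39 family) bring zinc into the cytosol. ZIP14 (Slc39a14) also carries iron and manganese and is known in mouse liver as a target of interleukin-6, and ZIP8 (Slc39a8) also carries manganese and cadmium and is known in human monocytes as a target of NF-kappaB.

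The promoters of Mt1, Mt2 and Slc30a1 are shown because MTF-1 is known to act through them. Each window runs from 250 bases before to 50 bases after the annotated start, from RefSeq on the build GRCm38.p6, on the strand of the gene, and capitals mark every match of the core of a metal response element, TGCACNC or TGCGCNC, on either strand.
Mt1, chr8:94178839-94179138, plus strand: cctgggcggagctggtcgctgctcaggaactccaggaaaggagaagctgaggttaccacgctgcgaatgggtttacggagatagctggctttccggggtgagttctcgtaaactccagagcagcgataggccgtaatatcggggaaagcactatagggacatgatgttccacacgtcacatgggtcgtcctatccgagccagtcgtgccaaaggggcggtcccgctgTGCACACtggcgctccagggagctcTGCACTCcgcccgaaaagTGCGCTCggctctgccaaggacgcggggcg
Mt2, chr8:94172368-94172667, plus strand: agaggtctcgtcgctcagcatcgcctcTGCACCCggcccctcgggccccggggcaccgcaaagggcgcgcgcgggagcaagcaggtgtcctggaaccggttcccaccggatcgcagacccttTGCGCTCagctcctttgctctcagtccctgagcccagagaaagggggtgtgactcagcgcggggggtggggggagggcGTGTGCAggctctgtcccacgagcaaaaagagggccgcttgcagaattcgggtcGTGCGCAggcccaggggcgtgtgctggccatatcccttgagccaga
Slc30a1, chr1:191906531-191906830, plus strand: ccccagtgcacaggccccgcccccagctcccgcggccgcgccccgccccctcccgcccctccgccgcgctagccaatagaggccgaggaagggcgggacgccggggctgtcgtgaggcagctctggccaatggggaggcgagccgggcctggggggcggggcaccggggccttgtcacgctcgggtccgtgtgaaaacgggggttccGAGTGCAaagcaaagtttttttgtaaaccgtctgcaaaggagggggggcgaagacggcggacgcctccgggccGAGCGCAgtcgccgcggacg
The Mt2 window held 4 matches, the Mt1 window 3 and the Slc30a1 window 2, with no overlap between matches. Of 32851 windows of 300 bases around annotated starts, 25.7% held at least 1 match, 7.11% at least 2, 1.97% at least 3 and 0.517% at least 4. Of the 6 genes, 5 had a window; that of Mtf1 held 0 matches, and the 2 of Slc39a8 held 0 and 1. A match is a description of these letters and does not show binding. Metal response elements outside a window, such as those near another start of the gene, were not counted.

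In the annotation of the deposited table (GENCODE vM32, plus strand unless stated) Mt1 (ENSMUSG00000031765) lies on chromosome 8 from 94905710 to 94906955 with 1246 exonic bases. Mt2 (ENSMUSG00000031762) lies beside it, from 94899292 to 94900196 with 588 exonic bases, and 5513 bases separate the pair. Mtf1 (ENSMUSG00000028890) lies on chromosome 4 from 124695897 to 124743593, Slc30a1 (ENSMUSG00000037434) on chromosome 1 from 191638879 to 191645359, and Slc39a8 (ENSMUSG00000053897) on chromosome 3 from 135531040 to 135594333. Slc39a14 (ENSMUSG00000022094) lies on the minus strand of chromosome 14 from 70540918 to 70588874, 32.7 Mb from Acod1. These coordinates belong to another build than the promoter windows. Reads were counted without regard to strand, and 432 of the 588 exonic bases of Mt2 (73.5%) also belong to Gm45774, a gene on the opposite strand, so reads of the pair cannot be told apart there. The counting command in the file header does not ask for reads over several genes to be counted, so reads in that stretch may be missing from both genes, and the Mt2 levels, per kb of all 588 bases too, may be too low. The shared part was 8.09% in Mtf1 and 8.92% in Slc30a1 (opposite-strand genes), and 0 in Mt1, Slc39a14 and Slc39a8.

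Library totals ran from 17559079 to 25049200 assigned read pairs. The 14 macrophage marker genes summed to 26275 to 43793 CPM per library, where CPM is the count scaled to a common library size, against 0.170 to 107 for 6 B cell markers, 11.1 to 99 for 11 neutrophil markers and 0.202 to 25.8 for 6 mast cell and basophil markers. B cell markers were at 75.6 to 107 CPM in the control groups and 0.170 to 1.01 with LPS alone. This sum rests on few genes, since 4 of the 6 markers had means under 1 CPM in each control group. With LPS alone all 6 did. Other sums also moved with treatment. In WT the neutrophil sum was 14.1 to 18.6 CPM in control, 93.5 to 99 with dexamethasone, 63.5 to 78.7 with LPS and 28.3 to 29.8 with both. The sum of 6 dendritic cell markers was 0.953 to 1.45, 16.1 to 17.3, 9.31 to 11.8 and 0.708 to 1.27 CPM in the same order, and the mast cell and basophil sum 14.4 to 17.8, 1.26 to 1.85, 1.66 to 2.63 and 0.202 to 0.323. The macrophage sum was 39191 to 40363 CPM in WT control, 26275 to 27742 with LPS and 36641 to 37528 with both. The neutrophil, dendritic cell and mast cell sums rest on few genes. In each WT group 8 to 10 of the 11 neutrophil markers and 5 or 6 of the 6 markers of either other list had means under 1 CPM. Retnlg, Mcpt4 and Fcer1a were at 0 in every library. The part of these cell type markers in the results was not tested, and in bulk libraries fewer cells of a type and less RNA per cell cannot be told apart. Acod1, the targeted gene, was at 6483 CPM in libraries labelled WT and 4995 CPM in those labelled KO with LPS (ranges 6125 to 6675 and 4898 to 5187, n = 4), so the count over the whole gene did not check the labels; they do not say which part was deleted, and KO stands below for libraries labelled KO. The column names place all WT libraries in sequencing lane 3 and all LPS-treated KO libraries in lane 2. Of the other KO libraries, 6 were in lane 3, 1 dexamethasone library was in lane 2 and 1 control library was named as merged, so KO against WT under LPS has no value within a lane.

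Levels were compared between genes per kilobase of exon. In WT control cells Mt1 was at 77.4 CPM per kb, above Slc30a1 at 6.31, Mtf1 at 3.04, Slc39a8 at 2.21 and Slc39a14 at 1.95 CPM per kb. Mt2 was at 0.064 CPM per kb, with 3 counts in 4 libraries. After LPS the WT levels were 327 for Mt1, 8.03 for Slc30a1, 6.45 for Mtf1, 4.57 for Slc39a14, 2.38 for Mt2 and 0.394 CPM per kb for Slc39a8, so Slc39a8 passed from the higher of the importers to the lowest of the 6 genes. Of the other metallothioneins, Mt3 stayed at or below 0.556 CPM in every library and Mt4 had 0 counts in all 32.

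**Figure D1:**
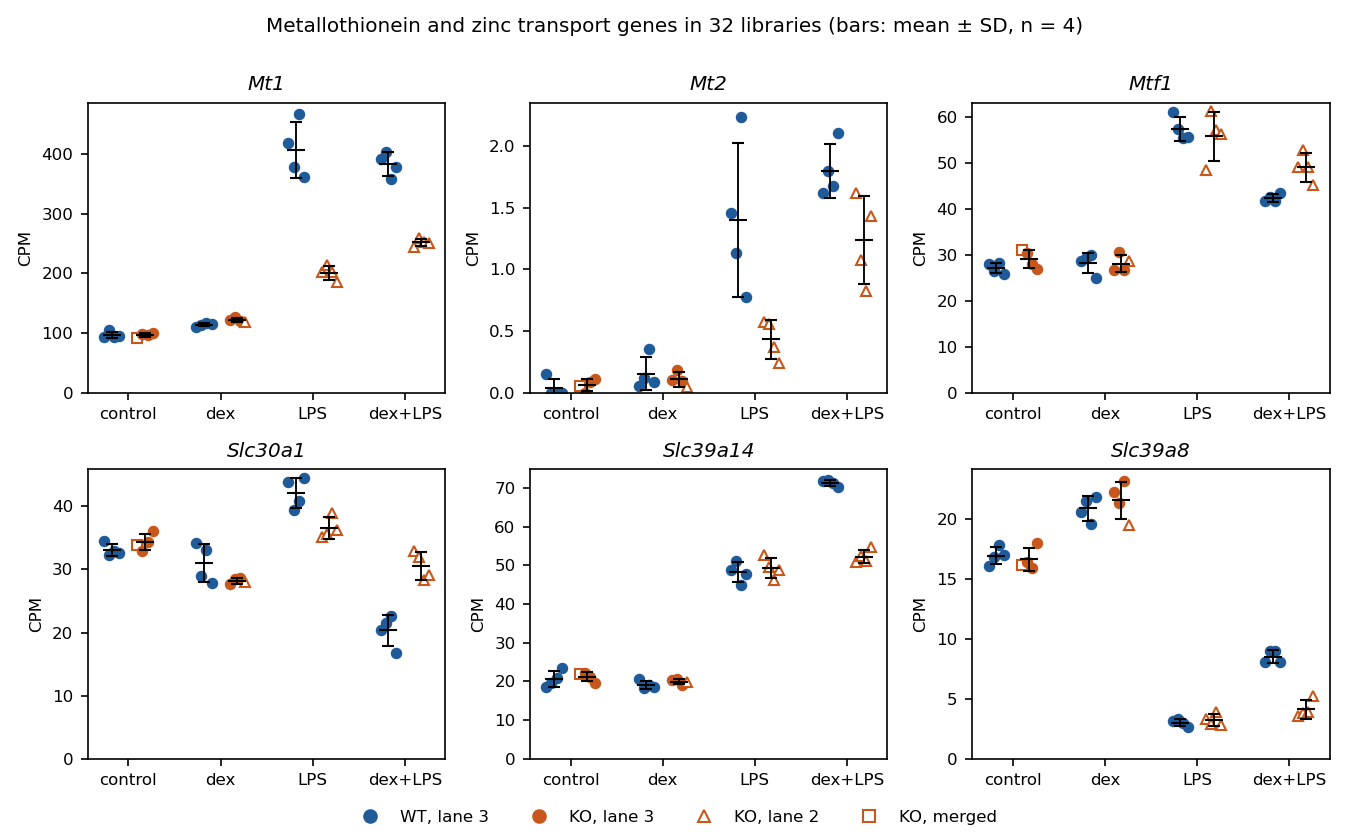
CPM (vertical axes, from 0) of the 6 genes in every library by treatment, WT in blue and KO in orange, with black bars for mean ± SD (n = 4) and symbols for the sequencing lane; dex is dexamethasone. Mt1 with LPS lies between 362 and 468 CPM in WT and between 185 and 214 CPM in KO, and Slc39a14 with dexamethasone plus LPS lies between 70.2 and 72.1 CPM in WT and between 50.9 and 54.7 CPM in KO.

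LPS against control, the inflammatory response without glucocorticoid, changed all 6 genes in WT (edgeR quasi-likelihood test, Benjamini-Hochberg adjusted p under 0.05 over 14427 genes), of which 5 rose and Slc39a8 fell. In KO 5 of 6 changed, 4 upward and Slc39a8 downward, and Slc30a1 was not called. Of all tested genes 75.7% were called in WT (37.4% higher and 38.3% lower) and 76.1% in KO (36.8% higher and 39.3% lower). Changes below are log2 fold changes ± SE from that fit. In WT the 6 genes had a median change of 1.16, against -0.020 over all tested genes, and in KO one of 0.998 against -0.032. Mt2 is part of these counts and medians, although it passed the filter on low counts only through the groups with LPS.

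Mt1 was at 93.1, 105, 93.6 and 94.4 CPM in the 4 WT control libraries and at 419, 379.7, 468 and 362 CPM in the 4 WT LPS libraries. In KO it was at 91.7, 98.5, 96.9 and 99.7 CPM in control and 202, 214, 202 and 185 CPM with LPS. Every LPS library was above every control library, and the KO LPS libraries all lay between the WT control and the WT LPS libraries. The log2 change was 2.08 ± 0.051, adjusted p = 1.6e-36 in WT and 1.05 ± 0.051, adjusted p = 3.6e-24 in KO. Mt2, its neighbour gene, was at 0.15, 0, 0 and 0 CPM in WT control and at 1.46, 1.14, 2.24 and 0.771 CPM in WT LPS libraries, 3 against 107 counts. The ratio of counts per library size was 36.9 (95% interval from 12.3 to 182, exact, for counting error only) and the adjusted p was 1.8e-10, but the fitted log2 change ran from 4.62 to 7.85 when 1 library was left out, so its size is poorly fixed. In KO its 6 control and 33 LPS counts gave a ratio of 6.76 (2.80 to 19.7), with adjusted p = 0.00022, and the fitted log2 change of 2.65 ± 0.64 became 3.94 with a lane term (adjusted p = 0.028). Mt2 passed the filter on low counts only through the groups with LPS. Its calls between groups with and without LPS, here and below, were thus partly fixed in advance and are a description only.

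Mtf1, the zinc-sensing regulator, ranged from 25.7 to 28.1 CPM in WT control and from 55.5 to 61.2 CPM in WT LPS libraries, a change of 1.08 ± 0.062, adjusted p = 2.2e-21. The KO ranges were 26.9 to 31.1 and 48.5 to 61.3 CPM, and the change was 0.94 ± 0.061, adjusted p = 2.1e-19. Control and LPS libraries did not overlap in either genotype. Slc30a1, the exporter, was at 34.5, 32.3, 32.9 and 32.7 CPM in WT control and 43.8, 39.4, 40.8 and 44.4 CPM in WT LPS libraries (0.35 ± 0.063, adjusted p = 2.9e-06). In KO the values were 33.9, 33, 34.4 and 36 and 35.1, 35.7, 39 and 36.2 CPM (0.086 ± 0.063, adjusted p = 0.21), and the groups overlapped. The direction for Slc30a1 depended on scaling: without normalization factors the change was 0.090 in WT (adjusted p = 0.184) and turned to -0.15 in KO (adjusted p = 0.0223), where the same scaling moved the median of all genes by -0.26 in WT and -0.24 in KO.

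Slc39a14, an importer, was at 18.5, 19.5, 21 and 23.4 CPM in WT control and 48.9, 51.1, 45 and 47.7 CPM in WT LPS libraries (1.23 ± 0.058, adjusted p = 1e-24). In KO it was at 22, 22.3, 21.2 and 19.5 and 52.6, 49.5, 46.3 and 48.8 CPM (1.22 ± 0.056, adjusted p = 4.9e-25). Every LPS library was above every control library in either genotype. Slc39a8, the other importer, was at 16.1, 16.8, 17.9 and 17 CPM in WT control and 3.16, 3.29, 2.97 and 2.64 CPM in WT LPS libraries (-2.49 ± 0.10, adjusted p = 7.3e-27). The KO values were 16.2, 16.5, 15.9 and 18 and 3.28, 2.87, 3.88 and 2.83 CPM (-2.37 ± 0.10, adjusted p = 2.5e-26). The importers therefore moved in opposite directions, with no overlap between control and LPS libraries. In KO the LPS and control libraries also differ in lane. Fitted with a term for lane (and so without the merged library), the KO changes were 1.08 for Mt1, 0.94 for Mtf1, 1.24 for Slc39a14 and -2.19 for Slc39a8. The estimate of that term rests on 1 KO dexamethasone library in lane 2.

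Dexamethasone alone gave fewer calls among the 6 genes than LPS did, all of them small. Mt1 and Slc39a8 rose in both genotypes, 2 of 6 genes called in WT, where 49.4% of all genes were called, and 3 of 6 in KO (48.5% of all genes), where Slc30a1 fell. None changed by as much as 2-fold. Mt1 was at 110.1, 114, 116 and 115 CPM in WT (0.24 ± 0.053, adjusted p = 0.00014) and at 122, 127, 120.3 and 119 CPM in KO (0.33 ± 0.052, adjusted p = 3.5e-07). All dexamethasone libraries were above all control libraries of their genotype. Slc39a8 was at 20.6, 21.5, 19.6 and 21.9 CPM in WT (0.30 ± 0.077, adjusted p = 0.00085) and at 22.3, 21.4, 23.1 and 19.5 CPM in KO (0.37 ± 0.075, adjusted p = 4.3e-05), again with no overlap with control. Slc30a1 was at 34.2, 29, 33.1 and 27.9 CPM in WT (-0.096 ± 0.064, adjusted p = 0.225) and at 27.7, 28.5, 28.7 and 28 CPM in KO (-0.28 ± 0.064, adjusted p = 0.0002). The KO libraries lay below all KO control libraries, while the WT libraries overlapped with control. Mtf1 ranged from 25 to 29.9 CPM in WT and Slc39a14 from 18.2 to 20.5 CPM, and neither was called in either genotype (adjusted p from 0.137 to 0.569). Mt2 had 13 counts in WT and 9 in KO and was not called. Without WT control replicate 1, the sole WT control library with Mt2 reads, 4 genes were called in WT, with Mt2 (adjusted p = 0.00612) and Slc39a14 (-0.16, adjusted p = 0.0416) added.

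Dexamethasone in LPS-treated WT cells lowered the exporter Slc30a1 and the regulator Mtf1 and raised both importers, while Mt1 was not called. In WT 4 of 6 genes were called, against 69.2% of all genes. In KO 5 of 6 were called, against 38.1% of all genes, and the metallothioneins rose. Slc30a1 was at 20.4, 21.5, 22.6 and 16.8 CPM in WT with both agents, below every other library of the study, a change of -1.05 ± 0.067, adjusted p = 2.2e-19. In KO it was at 32.9, 32, 28.4 and 29.1 CPM (-0.25 ± 0.064, adjusted p = 0.0013), below the KO LPS libraries. Mtf1 was at 41.6, 42.7, 41.8 and 43.5 CPM in WT (-0.44 ± 0.059, adjusted p = 5.1e-09) and 49.2, 52.8, 49.1 and 45.2 CPM in KO (-0.19 ± 0.058, adjusted p = 0.0085). In KO the Mtf1 groups overlapped, and the call was lost without KO LPS replicate 2 (adjusted p = 0.076) or KO dexamethasone plus LPS replicate 4 (adjusted p = 0.0632).

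Slc39a14 was at 71.7, 72.1, 71.1 and 70.2 CPM in WT with both agents, its highest group (0.57 ± 0.051, adjusted p = 5.5e-14 against LPS). KO libraries held 50.9, 52.3, 51.1 and 54.7 CPM, which overlapped with LPS alone (0.083 ± 0.052, adjusted p = 0.217). Slc39a8 was at 8.04, 9.0, 8.97 and 8.07 CPM in WT (1.5 ± 0.11, adjusted p = 1.8e-16), above all LPS libraries and below all control libraries. KO libraries held 3.54, 3.8, 3.89 and 5.23 CPM (0.35 ± 0.13, adjusted p = 0.025). That KO rise overlapped with LPS alone and was fragile, since its adjusted p was 0.0717 without the filter on low counts, 0.0892 in a fit of the compared groups alone, 0.0673 with lane 2 libraries alone, 0.0926 without KO LPS replicate 2, 0.0813 without KO LPS replicate 4 and 0.212 without KO dexamethasone plus LPS replicate 4.

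Mt1 was at 392, 405, 359.5 and 379 CPM in WT with both agents and overlapped with LPS alone (-0.084 ± 0.047, adjusted p = 0.111). Without normalization factors its change was 0.014, and leaving out WT LPS replicate 2 or 4 gave a small call downward (-0.12, adjusted p = 0.0377, and -0.14, adjusted p = 0.00908). In KO it was at 245, 259.6, 253 and 252 CPM, above all KO LPS libraries and below all WT libraries with LPS (0.33 ± 0.049, adjusted p = 2.4e-07). Mt2 was at 1.62, 1.8, 1.67 and 2.1 CPM in WT (0.35 ± 0.31, adjusted p = 0.315) and at 1.62, 1.07, 0.823 and 1.43 CPM in KO (1.48 ± 0.39, adjusted p = 0.0016). In KO the mean of Mt2 went from 0.434 to 1.24 CPM, and Gm45774 went from 12 to 42 counts in the same groups, so the share of either gene cannot be told apart.

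**Figure D2:**
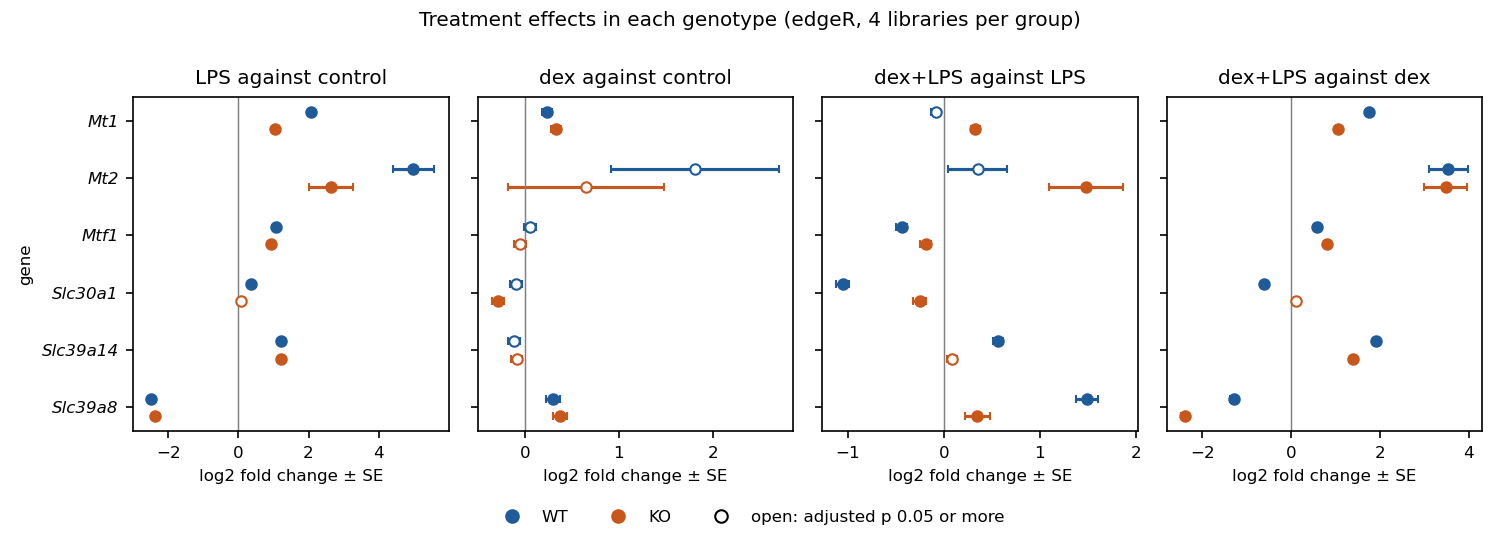
Log2 fold changes ± SE (horizontal axes, scaled separately) of the 6 genes for 4 treatment comparisons, WT in blue and KO in orange, open symbols where the adjusted p was 0.05 or more. For LPS against control Mt1 is at 2.08 in WT and 1.05 in KO, and for dexamethasone plus LPS against LPS the WT points of Slc30a1 (-1.05) and Slc39a8 (1.5) lie farther from 0 than those of KO (-0.25 and 0.35).

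LPS on top of dexamethasone changed all 6 genes in WT, against 73.3% of all genes, and 5 of 6 in KO, against 75.9%. Mt1 rose by 1.75 ± 0.050 in WT and 1.05 ± 0.050 in KO on the log2 scale, and Slc39a14 by 1.91 ± 0.056 and 1.39 ± 0.057. Slc39a8 was lower with both agents than with dexamethasone alone, at -1.3 ± 0.084 in WT and -2.39 ± 0.094 in KO. Slc30a1 fell in WT (-0.61 ± 0.068, adjusted p = 3.7e-11) and was not called in KO (0.12 ± 0.065, adjusted p = 0.097), except without KO dexamethasone plus LPS replicate 3 (0.15, adjusted p = 0.0471). Against untreated cells all 6 genes were called in each genotype, against 72.3% of all genes in WT and 74% in KO. Slc39a14 then stood at 3.46 times control in WT and 2.46 times in KO, and Slc39a8 at 0.502 and 0.248 times. The KO call of Slc30a1 against control (-0.17 ± 0.064, adjusted p = 0.018) was lost with the lane term (adjusted p = 0.318) and without KO control replicate 4 (0.0668) or KO dexamethasone plus LPS replicate 3 (0.0781) or 4 (0.0712). Mt2 is among the genes counted here, with the limit from its filter given above. These comparisons share control, dexamethasone and LPS libraries, so they are not independent.

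Whether dexamethasone acted differently with LPS than without it was tested as a difference of log2 changes. In WT 5 of 6 genes were called, against 60.4% of all genes. Slc39a8 (1.19 ± 0.14, adjusted p = 2e-10) and Slc39a14 (0.68 ± 0.081, adjusted p = 4.1e-10) had the more positive dexamethasone effect with LPS. Slc30a1 (-0.96 ± 0.093, adjusted p = 9.4e-13), Mtf1 (-0.49 ± 0.088, adjusted p = 3.1e-06) and Mt1 (-0.32 ± 0.071, adjusted p = 9.4e-05) had the more negative one. Mt2 was called as well, with the more negative effect, only without WT control replicate 1 (adjusted p = 0.012). In KO edgeR called 0 of 6 genes, against 41.8% of all genes, DESeq2 also called 0, and 1 gene, Slc39a14, had an unadjusted p under 0.05 (0.17 ± 0.081, adjusted p = 0.088). Without KO control replicate 4 Slc39a14 was called in KO (adjusted p = 0.036), and without KO LPS replicate 1 Slc39a14 (0.0447) and Mtf1 (0.0491) were.

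Differences between KO and WT were called for these genes only where LPS was present, of the 4 treatments tested. In those groups all KO libraries were in lane 2 and all WT libraries in lane 3. Lane and genotype therefore cannot be told apart in this pattern. In control cells edgeR called 0 of 6 genes (0.541% of all genes), 0 had an unadjusted p under 0.05 and DESeq2 called 0. With dexamethasone edgeR called 0 of 6 (0.901% of all genes), 1 gene, Slc30a1, had an unadjusted p under 0.05 (-0.13 ± 0.065, adjusted p = 0.472) and DESeq2 called 0. A missed threshold does not show equal levels, and the difference of Mt1 in control cells was 0.0044 ± 0.053. With LPS 3 of 6 genes were lower in KO, where 10.2% of all genes were called and 5.51% were lower, and with both agents 5 of 6 differed (56.4% of all genes).

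With LPS, Mt1 was at 201 ± 11.7 CPM in KO and 407 ± 47.1 CPM in WT (-1.02 ± 0.049, adjusted p = 4e-21), with no overlap. Of all tested genes, 26 (0.18%) were called lower in KO by 2-fold or more in LPS-treated cells, Mt1 and Mt2 among them. Mt2 had 33 counts in KO and 107 in WT (-1.67 ± 0.38, adjusted p = 0.002). Gm45774, which shares most exonic bases of Mt2, had 12 counts in KO and 32 in WT. The share of either gene in the Mt2 difference cannot be told apart. Slc30a1 was at 36.5 ± 1.74 CPM in KO and 42.1 ± 2.4 CPM in WT (-0.21 ± 0.063, adjusted p = 0.024), without overlap. The genotypes also differ in lane here. The lane term rests on 1 KO dexamethasone library in lane 2, since no other group has libraries in both lanes. It cannot separate lane from genotype here. With the lane term Mt1 was at -0.97 (adjusted p = 2.84e-09), Mt2 at -0.29 (not called) and Slc30a1 at -0.19 (adjusted p = 0.694). The Slc30a1 call was also lost without normalization factors, in the compared groups alone, and in 5 of the 8 fits that leave out 1 library of these groups, WT LPS replicates 1 and 4 and KO LPS replicates 1, 2 and 4 (adjusted p from 0.0522 to 0.0828). Neutrophil markers moved with genotype in these groups, 63.5 to 78.7 CPM in WT and 43.7 to 58.4 CPM in KO, with 8 of the 11 markers under 1 CPM in each and Retnlg at 0. Their part in the result was not tested.

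With dexamethasone plus LPS, Slc39a8 was at 4.12 ± 0.758 CPM in KO and 8.52 ± 0.537 CPM in WT (-1.05 ± 0.11, adjusted p = 3.9e-12). Slc39a14 was at 52.2 ± 1.74 against 71.3 ± 0.835 CPM (-0.45 ± 0.050, adjusted p = 8.6e-11), and Mt1 at 252 ± 6.0 against 384 ± 19.4 CPM (-0.61 ± 0.048, adjusted p = 1.7e-15). These 3 were lower in every KO library than in every WT library. Slc30a1 was higher in KO, at 30.6 ± 2.2 against 20.3 ± 2.51 CPM (0.59 ± 0.068, adjusted p = 2e-10), and so was Mtf1, at 49.1 ± 3.09 against 42.4 ± 0.851 CPM (0.21 ± 0.059, adjusted p = 0.002), both without overlap. With the lane term 4 of 6 were called, and Mtf1 was not (0.18, adjusted p = 0.283). That term rests on 1 KO dexamethasone library in lane 2 and cannot separate lane from genotype here. Macrophage markers summed to 30213 to 31048 CPM in these KO libraries and 36641 to 37528 CPM in WT. Other marker sums were higher in KO without overlap, dendritic cell markers at 6.81 to 9.71 against 0.708 to 1.27 CPM, neutrophil markers at 34.4 to 42.7 against 28.3 to 29.8 CPM, and mast cell and basophil markers at 1.16 to 2.52 against 0.202 to 0.323 CPM. These sums rest on few genes. Means under 1 CPM were found in KO and WT for 5 and 6 of the 6 dendritic cell markers, 8 and 9 of the 11 neutrophil markers and 5 and 6 of the 6 mast cell and basophil markers. Fkbp5, a glucocorticoid receptor target, was at 262 ± 29.3 CPM in KO and 681 ± 12.1 CPM in WT. Their part in the results was not tested.

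The genotype difference of each treatment effect was tested directly. For the LPS effect 1 of 6 genes was called, Mt1, against 3.72% of all genes, and the LPS effect on Mt1 was smaller in KO (log2 difference -1.02 ± 0.072, adjusted p = 1.9e-14). Of all tested genes 13 (0.0901%) had a KO effect lower by 2-fold or more, with Mt1 among them. Over the 16 fits that leave out 1 library the Mt1 value ran from -1.08 to -0.95. With the lane term, which rests on 1 KO dexamethasone library in lane 2, it was -1.0 (adjusted p = 2.39e-07). Lane and genotype cannot be told apart for this effect. Mt2 had the larger estimate (-2.34 ± 1.16) on few counts and was not called (adjusted p = 0.341), nor was Slc30a1 (-0.26 ± 0.089, adjusted p = 0.094). Slc39a14 (-0.0089 ± 0.081), Slc39a8 (0.12 ± 0.16) and Mtf1 (-0.14 ± 0.087) were not called either. For the effect of dexamethasone alone edgeR and DESeq2 called 0 of 6 genes and 0% of all genes, 617 genes had an unadjusted p under 0.05, and Slc30a1 alone of the 6 had an unadjusted p under 0.05 (-0.19 ± 0.091).

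For the effect of dexamethasone in LPS-treated cells 5 of 6 genes were called, against 45.4% of all genes. The difference was -1.14 ± 0.17, adjusted p = 2.8e-07 for Slc39a8 and -0.48 ± 0.073, adjusted p = 2.3e-07 for Slc39a14, both raised less by dexamethasone in KO. It was 0.80 ± 0.093, adjusted p = 4e-10 for Slc30a1 and 0.25 ± 0.083, adjusted p = 0.01 for Mtf1, both lowered less in KO. For Mtf1 the value was 0.18 without normalization factors (adjusted p = 0.0644). Mt1 rose in KO and not in WT (0.41 ± 0.068, adjusted p = 1.5e-06), and Mt2 was not called (1.13 ± 0.50, adjusted p = 0.06), although it was in the compared groups alone (adjusted p = 0.0425) and without WT LPS replicate 4 (0.0277) or KO dexamethasone plus LPS replicate 3 (0.0407). For the 4 genes other than the metallothioneins the KO effect was thus the one nearer to 0. Over all tested genes this dexamethasone comparison also gave fewer calls in KO, 38.1% against 69.2% in WT. A weaker effect in KO is therefore not shown to be particular to these genes, and the share of all genes with an effect nearer to 0 in KO was not counted. Within each genotype the compared libraries came from the same lane, so the lane term cancels in this difference. Its values (-1.14 for Slc39a8, 0.80 for Slc30a1 and 0.41 for Mt1) were bound to stay near those above and test nothing. The lane differs between the genotypes, so a dexamethasone effect that varies with lane cannot be told apart from genotype.

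**Figure D3:**
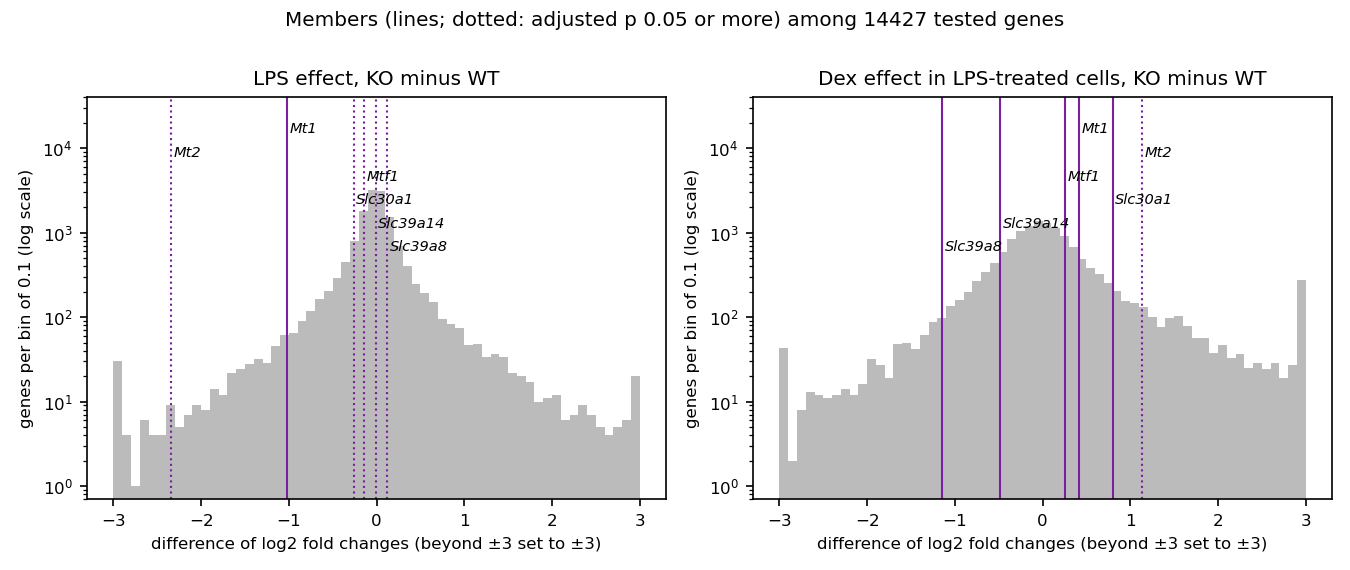
Number of tested genes (vertical axes, log scale) by the KO minus WT difference of log2 fold changes (horizontal axes, bins of 0.1), for the LPS effect and for the dexamethasone effect in LPS-treated cells, with lines at the 6 genes, dotted where not called. Mt1 is at -1.02 in the first panel; in the second, which is wider, Slc39a8 is at -1.14 and Slc30a1 at 0.80.

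Ordered by group mean, Mt1 was lowest in the control groups of both genotypes, which overlapped, and rose through WT dexamethasone, KO dexamethasone, KO LPS and KO dexamethasone plus LPS, each without overlap with the next, to WT dexamethasone plus LPS and WT LPS, which overlapped. Slc39a8 ran the other way, lowest in WT LPS, KO LPS and KO dexamethasone plus LPS, whose libraries overlapped from one to the next, then WT dexamethasone plus LPS (8.52 ± 0.537 CPM), the overlapping control groups and the overlapping dexamethasone groups. Slc39a14 had a low level of 4 groups without LPS, overlapping from one to the next (means 19 to 21.3 CPM), a middle level of WT LPS, KO LPS and KO dexamethasone plus LPS (48.2 to 52.2 CPM) and WT dexamethasone plus LPS alone above these. Mtf1 had the same 4 groups at its low end (27.1 to 29.2 CPM), then WT dexamethasone plus LPS, and above it the 3 other LPS groups, which overlapped from one to the next. Slc30a1 was lowest in WT dexamethasone plus LPS (20.3 CPM) and highest in WT LPS (42.1 CPM), each apart from its neighbour. The other 6 groups, at means between 28.2 and 36.5 CPM, overlapped from one to the next, and some groups farther apart overlapped too.

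Likeness to other genes was measured as the root-mean-square difference between 2 genes' 8 group means of log2 CPM, each centred on its own mean, over 9740 candidate genes, and is a description over 8 groups with no test. The genes nearest to Mtf1 were Sav1 (0.036), Samd4b (0.044) and Rab6a (0.045). Nearest to Slc30a1 were Sh3rf1 (0.054), Psd4 (0.073) and Dag1 (0.078), and nearest to Slc39a14 were Acsl5 (0.056), Ppif (0.099) and Fam241a (0.10). Slc39a8 had no gene closer than Arhgap4, Syne3 and Slc16a7 (0.16 each) and Mt1 none closer than Pex16 (0.26), Sec61g (0.27) and Sowahc (0.27). For Mt2 they were Sntb1 (0.40), Ift57 (0.43) and Ccl3 (0.43). Between the 6 genes the smallest difference was that of Mt1 and Slc39a14 (0.31) and the largest that of Mt2 and Slc39a8 (2.47).

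The other members of both transporter families set these values in context. Of 9 further ZnT genes 5 passed the filter on low counts, and of 12 further ZIP genes all 12 did. LPS raised 3 of the 5 ZnT genes in WT and lowered 1, with a median log2 change of 0.82, and raised 3 and lowered 2 in KO (median 0.83), against 75.7% and 76.1% of all genes called and all-gene medians of -0.020 and -0.032. Slc30a9 rose from 54.3 ± 1.7 to 119.6 ± 5.09 CPM in WT (1.14 ± 0.041, adjusted p = 1.2e-29). Slc30a5, which loads zinc into the secretory pathway, fell from 126 ± 4.22 to 58.9 ± 2.77 CPM (-1.1 ± 0.039, adjusted p = 6.1e-30). With dexamethasone plus LPS against LPS, 2 ZnT genes rose and 2 fell in WT, where 69.2% of all genes were called. Slc30a4, an exporter into vesicles, fell by 0.92 ± 0.062 in WT (adjusted p = 1.6e-18) and by 0.33 ± 0.060 in KO (adjusted p = 1.1e-05). For the genotype difference of that effect 3 of the 5 were called, 2 higher and 1 lower, a share near the 45.4% of all genes, and Slc30a4 was at 0.60 ± 0.086.

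Among the ZIP genes LPS raised 4 and lowered 6 in WT (median -0.11) and raised 4 and lowered 5 in KO (median -0.077). Slc39a4, known as the zinc importer of the gut, was at 8.15 ± 2.09 CPM in untreated WT cells and at 0.799 ± 0.237 CPM after dexamethasone. After LPS it was at 47.5 ± 1.86 CPM, and after both agents at 56.4 ± 2.32 CPM. Dexamethasone alone lowered it (-3.36 ± 0.17, adjusted p = 2.4e-22) and LPS raised it in dexamethasone-treated cells (6.15 ± 0.13, adjusted p = 8.1e-40). Slc39a10, an importer at the cell membrane whose mouse gene is known to be repressed by MTF-1, went from 48.5 ± 2.01 CPM in WT control to 14.6 ± 1.75 with LPS and 8.16 ± 1.1 CPM with both agents. It was the 1 ZIP gene of 12 whose LPS effect differed by genotype (0.48 ± 0.096, adjusted p = 0.001), where 3.72% of all genes were called. In KO it was at 20.9 ± 0.15 CPM with LPS. With both agents it was at 18 ± 1.28 CPM in KO, above WT (1.14 ± 0.083, adjusted p = 6.4e-17). The genotypes also differ in lane in the groups with LPS, and no value with the lane term is given for Slc39a10. In the genotype difference of the dexamethasone effect with LPS, 3 ZIP genes were called higher and 2 lower of 12, again near the share of all genes. Of Slc39a7 80.7% of exonic bases are shared with Gm20427 on the same strand, so its counts are uncertain.

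**Figure D4:**
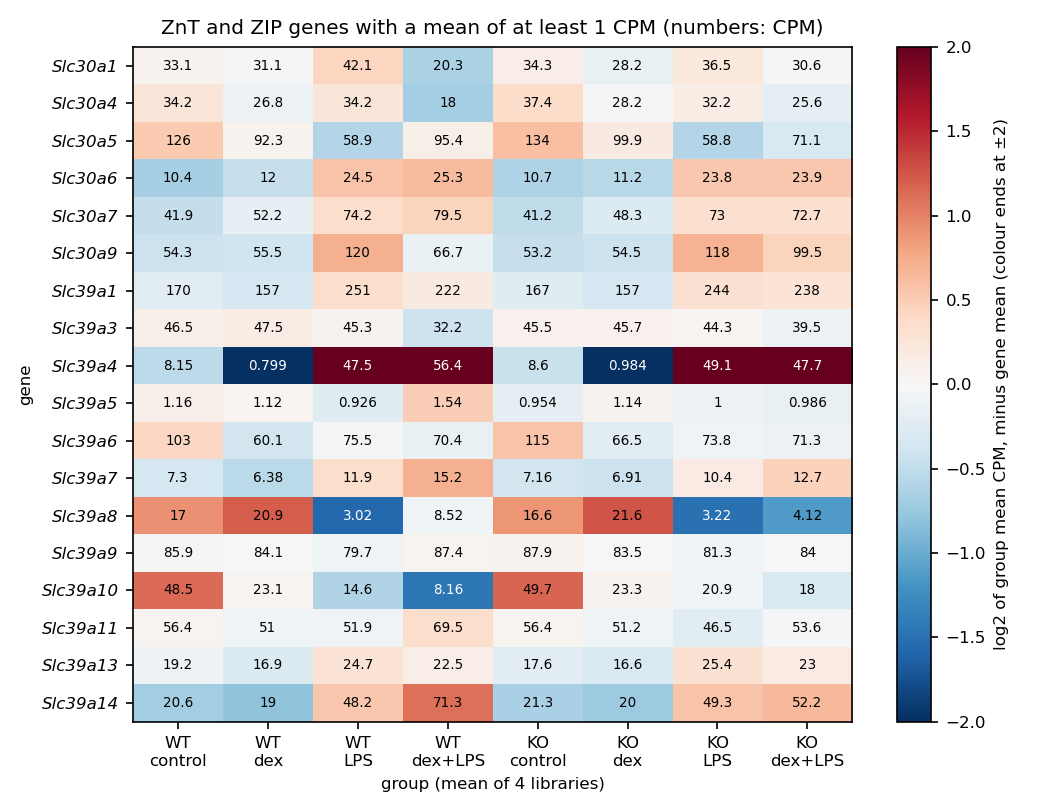
Group mean CPM (numbers, n = 4 libraries) of 18 ZnT and ZIP genes whose mean reached 1 CPM, coloured by the log2 mean centred on each gene's own mean over the 8 groups. Slc39a8 and Slc39a4 change in opposite directions with LPS, and Slc39a10 falls from 48.5 to 8.16 CPM in WT.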

How the data were processed

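Values were the raw counts that the authors deposited, 1 per gene and library, beside a column of exon lengths. Counting used featureCounts 2.0.0 with GENCODE vM32 exons, for fragments and both strands alike, per the file headers. The submitters' processing notes name STAR and the builds GRCm38 and mm10, while the table's coordinates matched a GRCm38 annotation (GENCODE vM21) for 1446 of 52029 shared identifiers and for 0 of the 6 genes, so positions are those of the table. Of 56953 identifiers 4924 had no symbol (0.846% of counts).

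Counts were fitted in R 4.3.3 with edgeR 4.0.16: default filterByExpr (14427 genes), TMM factors, 1 model of 8 group means (24 residual degrees of freedom, biological coefficient of variation 4.36%), quasi-likelihood tests, two-sided, of 19 contrasts, and Benjamini-Hochberg adjustment over all tested genes of a contrast. An SE is the log2 change over the root of its F statistic, and CPM uses TMM-scaled totals. Likeness to other genes used log2 CPM with a prior count of 2 and candidates averaging 5 CPM or more. The scripts were tested on simulated data. Alternatives were RLE factors, no normalization, no filter, DESeq2 1.42.0, an adjusted p under 0.01, compared groups alone, a replicate block, a lane term, libraries of 1 lane alone, and leaving out each library. All 48 replicate pairs differed by more than sampling noise (chi-square per degree of freedom 2.01 to 16.7). The genes, lists and tests were chosen with earlier results of these data known. Named genes were the 6, up to 4 called genes per list and comparison with the smallest adjusted p (not all are printed), and the 3 most alike; Acod1 and Fkbp5 served as checks. Intervals cover counting error only.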

Additional observations from a re-analysis of the deposited data

Results flagged for a closer look

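In 48 groups of 4 libraries (6 genes by 8 groups) 2 single libraries stood far from the other 3 of their group. Chance alone gives such a gap in about 1 of 20 groups, a rate that 2 of 48 does not exceed. Mt1 was at 105 CPM in WT control replicate 2 and at 93.1 to 94.4 CPM in the other 3, and Mt2 was at 0.15 CPM in WT control replicate 1 (3 counts) and at 0 in the other 3. Where 3 of 4 libraries hold 0 counts, any read in the last makes such a gap, so that rate does not apply to Mt2.

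Effects that differed between genotypes were those of 5 genes. The LPS effect on Mt1 differed by -1.02 (adjusted p = 1.9e-14). The dexamethasone effect in LPS-treated cells differed by 0.41 for Mt1, 0.25 for Mtf1, 0.80 for Slc30a1, -0.48 for Slc39a14 and -1.14 for Slc39a8 (KO minus WT, log2, adjusted p from 4e-10 to 0.01). KO libraries with LPS were all sequenced in lane 2 and WT libraries in lane 3. Within each genotype the dexamethasone effect in LPS-treated cells compares libraries of 1 lane. Because that lane differs between the genotypes, a dexamethasone effect that varies with lane cannot be told apart from genotype. With the lane term the LPS effect on Mt1 also differed (adjusted p = 2.39e-07). That term rests on 1 KO dexamethasone library in lane 2, so lane and genotype cannot be told apart for the LPS effect.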

How the results depend on the processing

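For 114 results (6 genes by 19 comparisons) the alternatives gave 2035 values with the same direction and call, 28 that lost the call, 12 that gained it and 49 of opposite sign. Of these, 48 were called neither before nor after, and the other was Slc30a1 for LPS in KO without normalization factors (-0.1542). Without normalization factors the sign also turned for Mt1 with dexamethasone plus LPS against LPS in WT (0.0138), Slc30a1 for both agents against dexamethasone in KO (-0.1142), Mt1 for how the KO dexamethasone effect depended on LPS (0.0036) and Slc39a14 for the genotype difference of the LPS effect (0.0093). That last value was 0.0040 with RLE factors, 0.0079 with the lane term and 0.0044 by DESeq2. The dependence of the KO dexamethasone effect on LPS turned for Mt1 also without the filter (0.0014) and with the lane term (0.0077), and for Slc30a1 with RLE factors (-0.0041) and by DESeq2 (-0.0045). The others were Mt1 for KO against WT in control (-0.0001, DESeq2), Mtf1 for dexamethasone in KO in lane 3 alone (0.0075) and Mt2 for KO against WT with both agents (0.8374, lane term). Leaving out 1 library, the ranges that cross 0 were, for that dependence, -0.0403 to 0.0274 (Mt1), -0.0042 to 0.0667 (Slc30a1) and -0.1558 to 0.0831 (Slc39a8). For KO against WT they were -0.0119 to 0.0483 (Mt1), -0.0045 to 0.1094 (Slc39a14) and -0.0672 to 0.0020 (Slc39a8) in control, -0.8773 to 0.2334 (Mt2) and -0.0575 to 0.0231 (Mtf1) with dexamethasone, and -0.0907 to 0.0207 (Mtf1) and -0.0088 to 0.1502 (Slc39a8) with LPS. For the genotype difference of Slc39a14 they were -0.0753 to 0.0386 (LPS effect) and -0.0395 to 0.0746 (dexamethasone effect). The causes of these were not tested. The number of the 6 genes called with the lane term was 1 for KO against WT with LPS (3 without it). Over the fits that leave out 1 library it ran from 2 to 4 for dexamethasone against control in WT, from 3 to 5 for dexamethasone plus LPS against LPS in KO and from 0 to 2 for the difference of the dexamethasone effect with and without LPS in KO; the libraries behind these are named with the results. Otherwise the counts stayed within 1.5 times. Replicate numbers were not taken to pair the libraries, since the labels tie them to nothing shared. Of 112 same-numbered pairs 7 correlated over 0.1 (median 0.0197). Yet 28 of 32 libraries were closest to their own number, far more than an even spread over the replicate numbers would give. The libraries may thus be paired by something that the labels do not state. A replicate block changed 0 of 114 calls (Mt1 for the genotype difference of the LPS effect -1.03 with the block).

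Counts over all genes moved more. For KO against WT in control cells 78 genes became 38 at an adjusted p under 0.01, 137 without the filter, 121 in the compared groups alone and 47 to 51 without WT control replicate 1 or 2 or KO control replicate 4. With dexamethasone 130 became 62, 201, 401, 75 with the lane term, 82 in lane 3 alone and 69 to 84 without 1 library (any WT replicate but 4, KO replicate 3 or 4). With LPS 1468 became 829 at the stricter threshold, 667 in the compared groups alone and 112 with the lane term, and with both agents 8137 became 4834 with the lane term. For the genotype difference of the LPS effect 536 became 260, 314 and 113 in the same order, and for that of dexamethasone alone 0 (617 at an unadjusted p under 0.05, 0 by DESeq2) became 6 without the filter, 1 in the compared groups and 3 without WT control replicate 4. The causes were not tested. Without normalization factors the median change of all genes moved by -0.23 to -0.16 in the comparisons of both agents with dexamethasone or control, and the share of calls that were higher fell from 49.4% to 34.1% (LPS in WT), 48.4% to 34.1% (LPS in KO), 48.4% to 35.4% and 50.8% to 35.9% (LPS on dexamethasone in WT and KO), and 47.7% to 36.9% and 50.7% to 36.4% (both agents against control), and rose from 44.9% to 61.6% and 45.8% to 65.0% (KO against WT in control and LPS) and from 55.8% to 66.1% (difference of the LPS effect). Depth limits Mt2, with 417 counts in all 32 libraries.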

Other observations

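Genes of copper handling, the other metal that metallothioneins bind, were counted from a list of 14, of which 13 were tested. LPS raised 9 and lowered 3 in WT and raised 8 and lowered 4 in KO, with a median log2 change of 0.86 and 0.31. Of all genes 75.7% were called in WT (37.4% higher) and 76.1% in KO (36.8% higher), with medians of -0.020 and -0.032. Slc31a1, the copper importer of the cell membrane, rose from 118 ± 4.17 to 461 ± 13 CPM in WT (1.97 ± 0.034, adjusted p = 2.9e-43), and Slc31a2, a related transporter, from 46.2 ± 2.71 to 391 ± 17.8 CPM (3.08 ± 0.041, adjusted p = 4.5e-48). For the genotype difference of the LPS effect edgeR called 0 of the 13.

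Atp7b, a copper-exporting ATPase, was at 6.7 ± 1.34 CPM in WT LPS and 0.0617 ± 0.064 CPM in WT dexamethasone plus LPS libraries, and at 6.36 ± 1.12 and 3.92 ± 0.694 CPM in the same KO groups. The genotype difference of that dexamethasone effect was 5.93 ± 0.51, adjusted p = 3.3e-14. Its size is poorly fixed, since the 0.0617 CPM of the WT group with both agents rests on very few reads. For Steap3, a metalloreductase, the genotype difference was -0.88 ± 0.098, adjusted p = 1.1e-10, from a rise of 1.19 ± 0.069 in WT and 0.32 ± 0.069 in KO.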
